A study of Homo sapiens with 6 samples.

Results

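The genes described here build the cell junctions and the keratin filaments of epithelial cells. They are 40 human genes chosen by name: 11 claudins, 8 other tight junction proteins, 9 desmosome and cell envelope proteins, 7 keratins, 3 connexins and 2 catenins. Of the 40, 38 were found among the 20026 genes measured, and *KRT86* and *GJA1* were not analysed here. RNA-seq was done in HepG2, a human liver cancer cell line, to find the genes that differ in cells edited in the miRNA miR-23a or miR-27a. Both are cut from a shared precursor transcript and miRNA levels were not analysed here, so a group is named by its edit and other miRNAs of the precursor may differ too. There were 6 libraries in 3 groups of 2. Scr cells had a wild-type genotype and had received a Cas9 vector with no targeting sequence. The KO cells had been edited with CRISPR/Cas9, in miR-23a in the group named miR-23a KO and in miR-27a in the group named miR-27a KO. Edited cells were grown as colonies from single sorted cells, so a difference that a colony had for other reasons cannot be told apart from the edit. The labels do not say which colony or culture gave each library, and the p-values below measure only the spread between these libraries, which may be technical. The edited miRNA genes have no row that was analysed here, and libraries were assigned to groups by their titles. Some label wording on cell type and sorting does not match this cell line.

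The counts of a library summed to 14891239 and 14405250 (Scr), 16515261 and 15930779 (miR-23a KO) or 15850589 and 15947308 (miR-27a KO). Levels of 1 gene across libraries are given as CPM (counts scaled to a common library size) after normalisation between libraries, and levels of different genes are compared as FPKM, which divides by transcript length as well. All 9 hepatocyte markers examined were above 1 CPM in Scr, which fits the liver origin of the line. The libraries of miR-23a KO stood apart from each other. Of the 30 members with enough counts in that pair, 26 differed more than 1.5-fold between the libraries, as did 69.5% of all genes. In the Scr pair it was 5 of 32 members and 20.4% of all genes, and in the miR-27a KO pair 1 of 31 members and 4.42% of all genes.

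Tight junctions seal the space between neighbouring epithelial cells, with claudins and occludin in the membrane and ZO proteins linking them to actin. Desmosomes hold cells together mechanically: their cadherins, the desmogleins and desmocollins, bind through plakoglobin, plakophilins and desmoplakin to keratin filaments. Hepatocytes form tight junctions around bile canaliculi, communicate through the connexin encoded by *GJB1*, and make only the simple keratins *KRT8* and *KRT18*.

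The miRNAs that name the KO groups differ in their seeds, the bases by which a miRNA finds its targets, and the seeds are in capitals in the RefSeq sequences (GRCh38.p14).
miR-23a-3p: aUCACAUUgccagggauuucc
miR-27a-3p: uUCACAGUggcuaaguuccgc
They are encoded at chr19:13836595-13836615 and chr19:13836447-13836467, both on the minus strand. A match to the miR-27a-3p seed was present in the 3'-UTRs of 6 of 38 members (*CLDN3*, *CXADR*, *DSC2*, *KRT8*, *PKP2* and *PKP4*), or 15.8%, against 18.3% of 15926 genes with an annotated 3'-UTR. A match to the miR-23a-3p seed was present in 7 of 38 members (*CLDN12*, *CLDN14*, *DSC2*, *OCLN*, *PKP2*, *PKP4* and *TJP1*), or 18.4%, against 20.7% of all genes. These are matches of 7 bases in GENCODE 29 transcripts and not measured binding. For each gene the longest annotated 3'-UTR among its transcripts was searched, which need not be that of its most abundant transcript. The *KRT8* matches, at chr12:52948057-52948063 and chr12:52947938-52947944, lie near the 5' end of the gene (chr12:52897187-52949954, minus strand). Other transcripts of *KRT8* may therefore lack them.

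In Scr cells, 29 of 38 members exceeded 1 FPKM in both libraries, and the levels spanned the range from hardly detected to among the most abundant transcripts. The simple keratins led, with *KRT8* at 1135 ± 64.8 FPKM (SD, n = 2) and *KRT18* at 753.8 ± 15.6 FPKM. They ranked 33 and 53 among 17620 genes with a length. *KRT8* and *KRT18* overlap on opposite strands of chromosome 12 and have many pseudogenes, so their counts are uncertain to that extent. The type I keratin *KRT23* followed at 116.6 ± 12.9 FPKM. The gap junction gene *GJB1* reached 94.7 ± 15.9 FPKM and the adherens junction gene *CTNNA1* 85.85 ± 7.97 FPKM, values that lay within their spread of each other. Among desmosome genes the plaque proteins were the most abundant, *JUP* (plakoglobin) at 54.4 ± 0.737 FPKM, *PKP3* at 49.9 ± 0.126 and *DSP* (desmoplakin) at 40.2 ± 4.72. The desmosomal cadherins were lower, *DSG2* at 3.37 ± 0.425 FPKM and *DSC2* at 0.742 ± 0.0838. Among claudins *CLDN6* at 43.85 ± 17.3 FPKM, *CLDN4* at 27.95 ± 6.45 and *CLDN1* at 19.5 ± 4.61 were the highest. The Scr libraries of *CLDN6* and *CLDN4* overlapped, so their order is not resolved. *F11R*, which encodes the junctional adhesion molecule JAM-A, was the highest of the other tight junction genes at 33.4 ± 1.23 FPKM. At the other end, *CLDN7*, *CLDN14*, *KRT7*, *KRT81* and *GJB2* had between 0 and 6 counts in each of the 6 libraries and were too low to be tested.

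**Figure D1:**
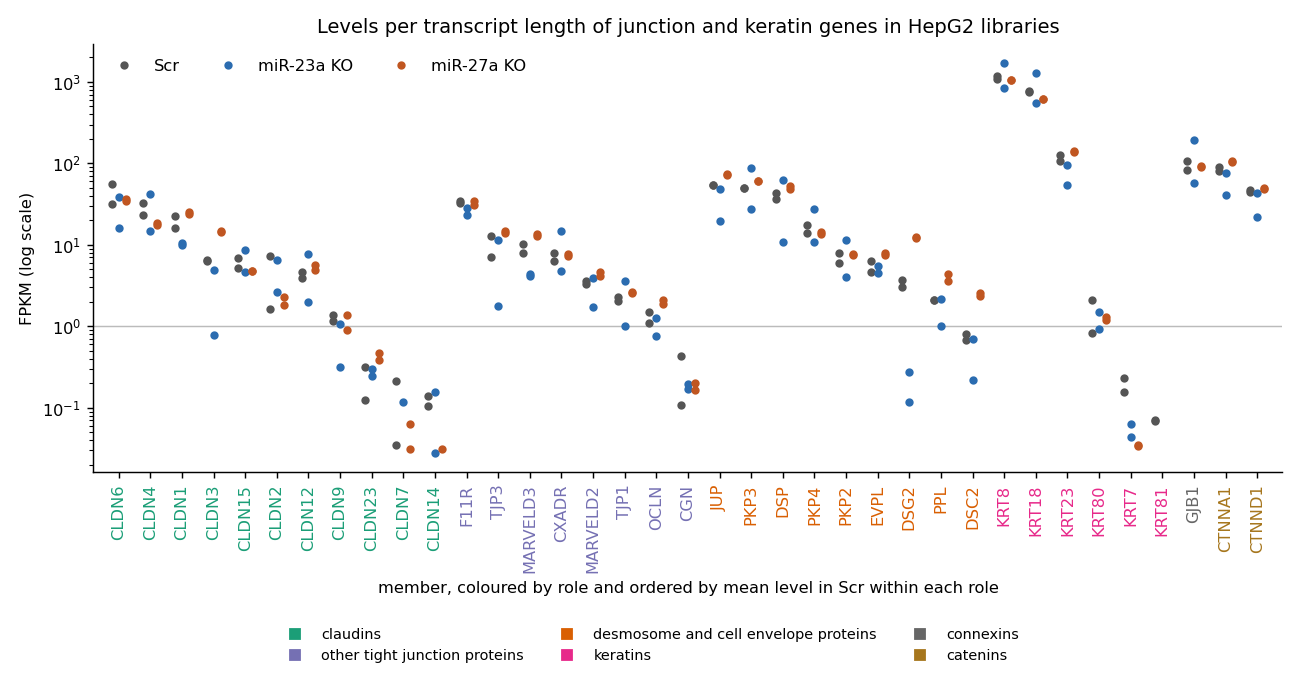
Level of each member in FPKM on a log axis, with a point for each library, members grouped by role, a grey line at 1 FPKM, and values of 0 and the gene *GJB2* (at 0 in Scr) not drawn. *KRT8* and *KRT18* lie highest, and the paired blue points of miR-23a KO lie far apart for most members.

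The comparison of miR-27a KO with Scr asked which members differ in cells edited in miR-27a, and 33 of the 38 members could be tested in it. Of the 33 members, 4 rose (*DSG2*, *DSC2*, *PPL* and *CLDN3*) and 0 fell, at an adjusted p under 0.05 and a fold change over 1.5. Of all 13820 genes tested, 3.52% rose and 6.74% fell by the same rule, and at an adjusted p under 0.001 in edgeR 0 members were called, against 0.0145% of all genes higher and 0.0145% lower. For 19 of 33 members both libraries of miR-27a KO were above both of Scr, and for 4 they were below, against 33.4% and 31.0% of all genes. Fitted values were higher for 21 members and lower for 12, against 50.9% and 49.1%. The median log2 fold change of the members was 0.25 and that of all genes tested 0.01.

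Desmosome and cell envelope genes held 3 of the 4 calls. *DSG2* encodes desmoglein-2, the desmoglein of simple epithelia (gene 1829, chr18:31498043-31549008). Its level was 17.9 and 21.4 CPM in Scr, 70.2 and 72.3 CPM in miR-27a KO, and 0.688 and 1.59 CPM in miR-23a KO. The 3 groups did not overlap, miR-27a KO being the highest and miR-23a KO close to 0. *DSG2* rose in miR-27a KO by a log2 fold change of 1.84 (SE 0.12), with an adjusted p of 0.00408 in edgeR's quasi-likelihood test and both libraries above both of Scr. In bulk samples a change in the RNA of each cell and a change in the share of cells that make it cannot be told apart.

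*DSC2* encodes desmocollin-2, the partner of desmoglein-2 (gene 1824, chr18:31058840-31102522). Its level was 8.41 and 9.87 CPM in Scr, 29.25 and 31.3 CPM in miR-27a KO, and 2.67 and 8.62 CPM in miR-23a KO. The miR-27a KO libraries were above all others, while 1 miR-23a KO library lay within the range of Scr. *DSC2* rose in miR-27a KO by a log2 fold change of 1.71 (SE 0.15, adjusted p 0.00739 in edgeR's test). Both genes belong to the desmosomal cadherin cluster of chromosome 18, of which *DSG1*, *DSC1* and *DSC3* stayed at or below 0.121 CPM in every library, and DSG3 and DSG4 were not analysed here.

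*PPL* encodes periplakin, which links desmosomes and keratins in the cell envelope (gene 5493, chr16:4882507-4960741). It was at 13.0 and 13.1 CPM in Scr, 27.01 and 22.3 CPM in miR-27a KO, and 6.34 and 13.55 CPM in miR-23a KO. Both miR-27a KO libraries were above the other 4, and the miR-23a KO libraries lay on either side of Scr. *PPL* rose in miR-27a KO by a log2 fold change of 0.90 (SE 0.16, adjusted p 0.0282 in edgeR's test).

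The plaque genes moved by less. *JUP*, named here after its values were seen, was at 192.0 and 188.3 CPM in Scr and at 256.7 and 255.0 CPM in miR-27a KO, a log2 fold change of 0.41 (SE 0.08, adjusted p 0.0294 in edgeR's test) that did not reach 1.5-fold. With GC content and length corrected *JUP* was called higher, with or without the replicate block. *DSP* was at 426.4 and 361.0 CPM in Scr and 512.1 and 477.3 CPM in miR-27a KO, and its log2 fold change of 0.31 (SE 0.11) had an adjusted p of 0.135 in edgeR's test. Of the 9 genes of this role, 8 had a higher fitted level in miR-27a KO, against 50.9% of all genes, and *PKP4* a lower one (log2 fold change -0.18). For 7 of the 9 both libraries of miR-27a KO exceeded both of Scr, against 33.4% of all genes. The median log2 fold change of the 9 was 0.41.

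For *DSG2*, *DSC2* and *CLDN3*, 3 of the 4 members called higher, the stretches of the promoter that hold an E-box are given because that word is bound by repressors of epithelial genes such as *SNAI1*. The word searched was CAGGTG or its reverse complement CACCTG, in capitals, within 250 bases before and 50 after the start of transcription (RefSeq, GRCh38.p14).
DSG2 E-box 1: cgtcacggtccCAGGTGcgagtgcgagc
DSG2 E-box 2: cgcggcggccaCACCTGgagccgcgcct
DSC2 E-box: caactttctgtCAGGTGggcctcaggca
CLDN3 E-box: aaagccacaggCAGGTGcaggcgca
They lie at chr18:31497934-31497961 and chr18:31498050-31498077 on the plus strand, and at chr18:31102561-31102588 and chr7:73770221-73770245 on the minus strand. Promoters of 23 of the 38 members were matched in the table, and 9 of them, or 39.1%, held the word, against 19.7% of 15000 promoters. The promoter of *PPL* was not among those matched. The other members with the word were *CLDN6*, *DSP*, *GJB1*, *GJB2*, *OCLN* and *TJP1*, of which *GJB2* was not tested and the other 5 were not called in miR-27a KO. *SNAI1* itself was at 15.0 and 8.46 CPM in Scr, 14.1 and 13.4 CPM in miR-23a KO, and 2.785 and 2.825 CPM in miR-27a KO. Whether the word or *SNAI1* has a part in the levels of these members was not tested.

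**Figure D2:**
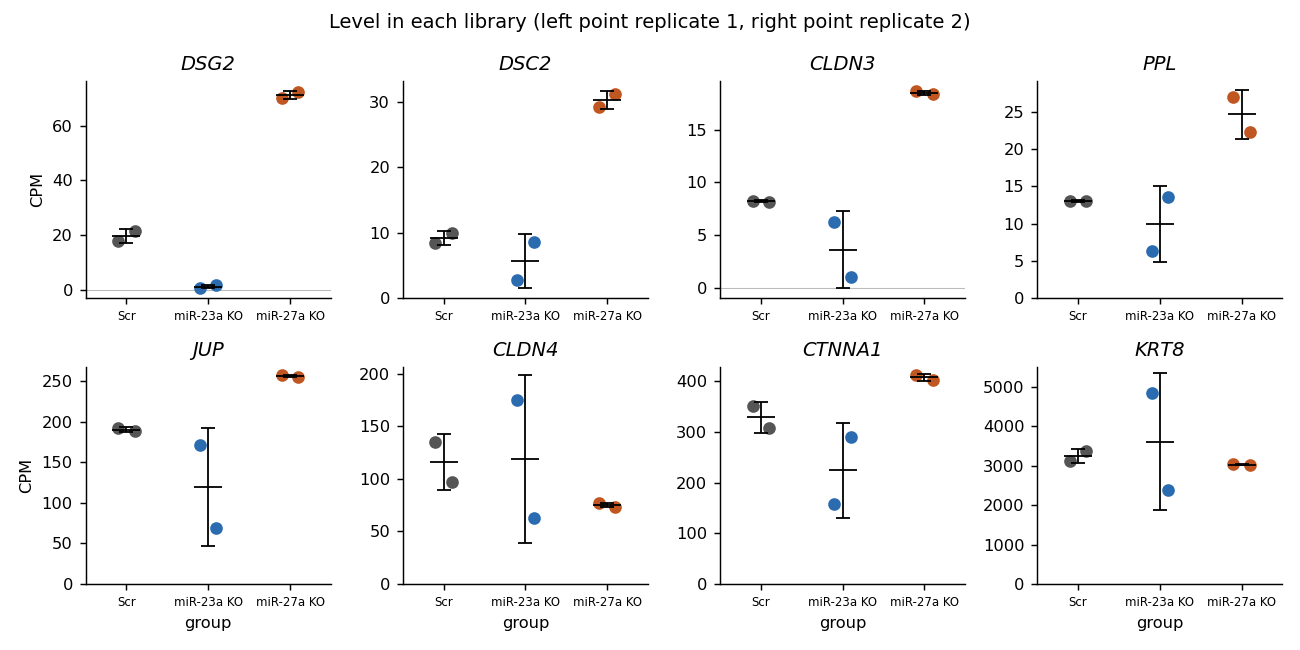
Level in CPM of 8 members in each library, with the mean as a horizontal bar and the SD (n = 2) as an error bar. Both miR-27a KO libraries lie above all others for *DSG2*, *DSC2*, *CLDN3*, *PPL*, *JUP* and *CTNNA1*, while the miR-23a KO libraries spread widely for most genes and lie near 0 for *DSG2*.

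Among claudins, the membrane proteins that set the permeability of the tight junction, *CLDN3* was called (gene 1365, chr7:73768997-73770270). It was at 8.28 and 8.13 CPM in Scr, 18.65 and 18.4 CPM in miR-27a KO, and 6.19 and 0.988 CPM in miR-23a KO. The 3 groups did not overlap, and miR-27a KO was the highest. *CLDN3* rose in miR-27a KO by a log2 fold change of 1.16 (SE 0.16, adjusted p 0.0163 in edgeR's test). Its 3'-UTR of 390 bases holds a match to the miR-27a-3p seed, in capitals, at chr7:73769155-73769161 on the minus strand (GENCODE 29, GRCh38).
CLDN3 3'-UTR: aacctgcatggACTGTGAaacctcaccct
DSC2 3'-UTR 1: tggtttgaaacACTGTGAaactgtaaggt
DSC2 3'-UTR 2: tatgatccattACTGTGAtacaatgtacc
The *DSC2* matches lie at chr18:31065774-31065780 and chr18:31060103-31060109 on the minus strand. *DSG2* and *PPL*, which rose too, held no match in their 3'-UTRs. Over the 6 tested members with the miR-27a-3p match the median log2 fold change in miR-27a KO was 0.08, and over the 27 without it 0.28. For the miR-23a-3p match in miR-23a KO the medians were 0.18 over 6 members with it and -0.34 over 27 without.

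*CLDN4* neighbours *CLDN3* on chromosome 7 and had the highest CPM of the claudins in Scr. Its level was 135.3 and 97.4 CPM in Scr, 76.7 and 73.5 CPM in miR-27a KO, and 175.4 and 62.4 CPM in miR-23a KO. Both miR-27a KO libraries lay below both of Scr, with a log2 fold change of -0.65 (SE 0.17) and an adjusted p of 0.0654 in edgeR's test, while the miR-23a KO libraries lay on either side. DESeq2 called it lower (adjusted p 0.00845), as did edgeR with the replicate block (adjusted p 0.0141). Over 9 alternatives its adjusted p lay between 0.00845 and 0.985, under 0.05 in 2. The other 7 claudins tested had log2 fold changes between -1.12 and 0.94 in miR-27a KO and none was called. The lowest of these was *CLDN2*, the pore-forming claudin, whose Scr libraries alone lay at 5.13 and 22.7 CPM.

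The 8 other tight junction genes had log2 fold changes between -0.58 and 0.61 in miR-27a KO, with 0 called. Occludin (*OCLN*) and the related *MARVELD2* and *MARVELD3*, the scaffolds *TJP1* (ZO-1) and *TJP3* (ZO-3), which are named after their values were seen, had both miR-27a KO libraries above both of Scr. They were 5 of 8 genes of the role, against 33.4% of all genes. Their log2 fold changes were between 0.25 and 0.61, and the smallest adjusted p among them was 0.0892 in edgeR's test. *OCLN* has a partial copy elsewhere in the genome and its counts are uncertain to that extent. *F11R*, the most abundant in CPM, was at 165.8 and 157.4 CPM in Scr and 148.0 and 168.9 CPM in miR-27a KO, and these groups overlapped (log2 fold change -0.05, SE 0.10).

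Keratins and connexins had small fitted differences in miR-27a KO, and none was called. *KRT8* was at 3116 and 3378 CPM in Scr and at 3044 and 3013 CPM in miR-27a KO. Both miR-27a KO libraries were below both of Scr, by a log2 fold change of -0.12 (SE 0.09, adjusted p 0.431 in edgeR's test) that turned to 0.11 once GC content and length were corrected. The 4 tested keratins had log2 fold changes between -0.30 and 0.25. *GJB1*, the connexin of hepatocytes, was at 159.0 and 201.7 CPM in Scr and at 176.4 and 170.5 CPM in miR-27a KO. The miR-27a KO libraries lay within the range of Scr (log2 fold change -0.07, SE 0.12), and with GC content and length corrected the fitted value was 0.17.

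Among the catenins, the product of *CTNNA1* ties cadherins to actin. *CTNNA1* was at 350.5 and 307.3 CPM in Scr, 412.9 and 403.2 CPM in miR-27a KO, and 158.1 and 290.8 CPM in miR-23a KO. The 3 groups did not overlap. In miR-27a KO its log2 fold change was 0.29 (SE 0.10, adjusted p 0.113 in edgeR's test). *CTNND1*, which encodes p120-catenin, had a log2 fold change of 0.09 (SE 0.09).

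**Figure D3:**
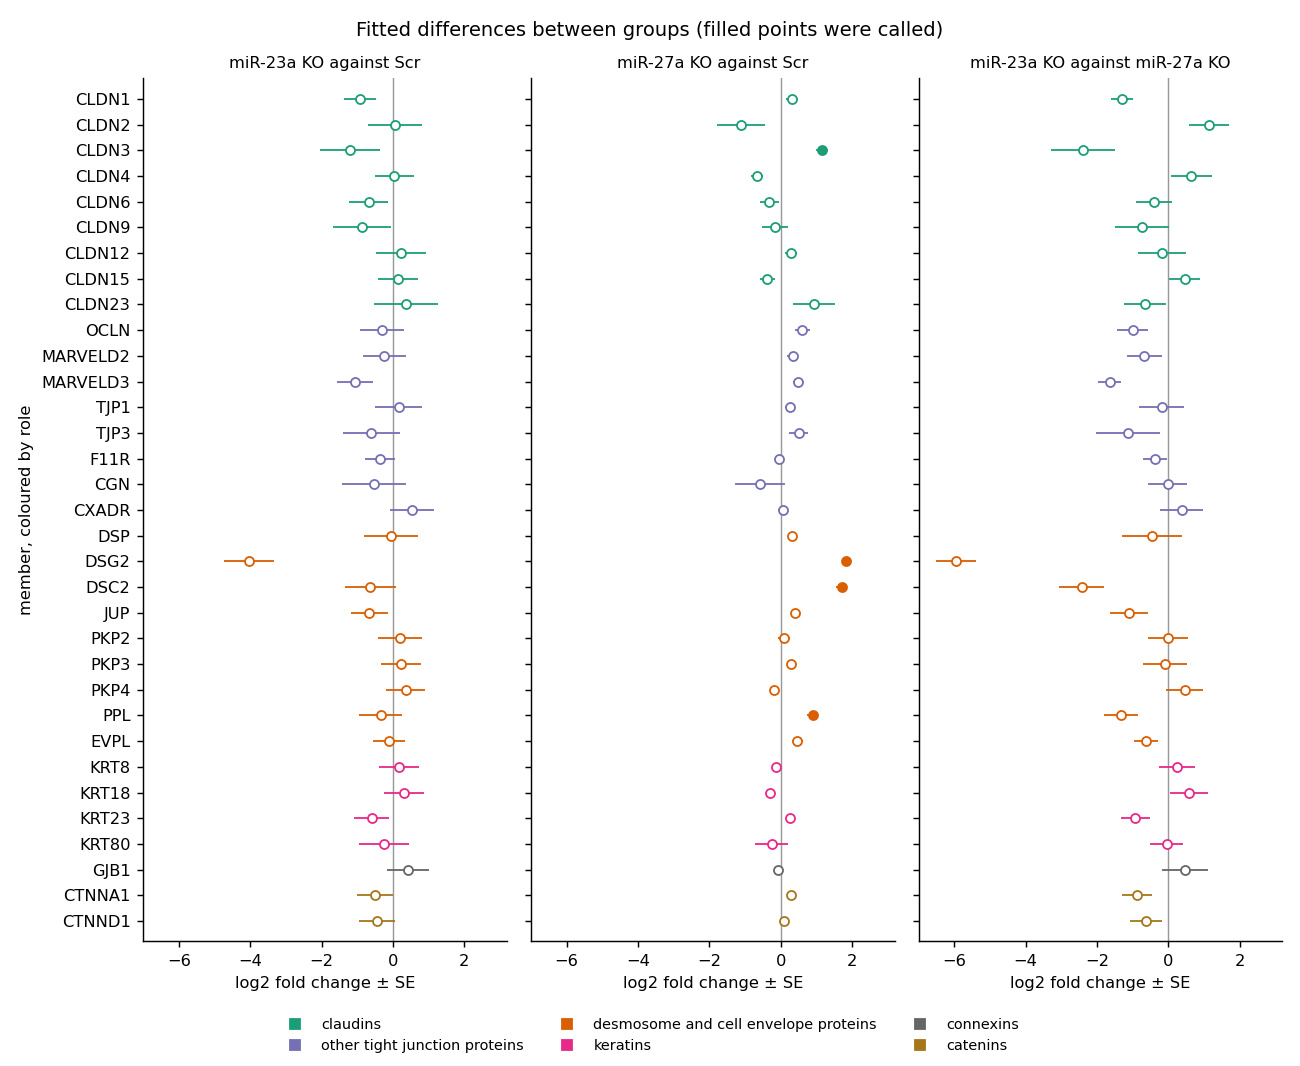
Fitted log2 fold change of the 33 tested members in each comparison, with the standard error as a bar colours for the roles, and filled points for members called. The 4 filled points are all in miR-27a KO against Scr, and the bars of most members are longer in both comparisons that hold miR-23a KO libraries.

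In miR-27a KO against Scr, edgeR without the replicate block called 0 members lower (6.74% of all genes). In that fit 2 members were lower at an unadjusted p under 0.05 (18.4% of all genes). DESeq2 called 1 lower, *CLDN4* (7.66%), edgeR with the replicate block also 1, *CLDN4* (7.74%), and limma 0. With either miR-27a KO library left out, 2 members were called higher (*DSG2* and *DSC2*) and 0 lower, where 0.776% and 2.19% of all genes were without replicate 1 and 0.574% and 1.76% without replicate 2. With Scr replicate 2 left out, 8 members were higher and 3 lower, beside 13.3% and 12.6% of all genes, and with Scr replicate 1 left out 4 and 1, beside 7.25% and 8.73%. In a fit of all 6 libraries, which takes up the wide spread of miR-23a KO, 0 members were called, beside 0.0212% of all genes higher and 0.431% lower. With GC content and length corrected 5 were higher and 0 lower, beside 4.83% and 5.7%. With the replicate block added to this correction 9 were higher and 0 lower, beside 6.29% and 6.74%. Of 9 alternatives, 8 gave an adjusted p under 0.05 for each of the 4 members called, and for *DSG2* the range was from 3.85e-20 to 0.174.

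Genes that work with these members moved in both directions in miR-27a KO. Of 75 such genes, 61 were in the table and 43 were tested, with 9 higher and 5 lower, beside 3.52% and 6.74% of all genes. E-cadherin (*CDH1*), the cadherin of adherens junctions, was at 62.98 and 88.05 CPM in Scr, 137.3 and 133.6 CPM in miR-27a KO, and 21.9 and 11.4 CPM in miR-23a KO. The 3 groups did not overlap, and *CDH1* rose in miR-27a KO by a log2 fold change of 0.83 (SE 0.16, adjusted p 0.0337 in edgeR's test). Its partner *CTNNB1* (beta-catenin) rose by 0.74 (SE 0.10) and was at 391.1 and 338.8 CPM in Scr against 615.6 and 621.1 CPM in miR-27a KO. Of 15 tested genes on a list of tight junction, polarity and nectin-afadin adhesion genes, 3 rose and 1 fell. *CGNL1* rose by 1.44 (SE 0.15), *AFDN* by 1.15 (SE 0.09) and *NECTIN3* by 1.71 (SE 0.36). *NECTIN2* fell by 0.97 on the log2 scale (SE 0.09).

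Of the 12 tested genes that regulate or accompany the epithelial state, *ESRP1*, *EPCAM* and *SPINT1* rose, and *SPINT2* and *RAB25* fell. *ESRP1*, an epithelial splicing factor, was at 1.78 and 2.69 CPM in Scr, 18.1 and 18.2 CPM in miR-27a KO, and 0.0764 and 0.0549 CPM in miR-23a KO. As for *DSG2*, *CLDN3* and *CDH1*, miR-27a KO was the highest group and miR-23a KO the lowest, with no overlap. *ESRP2*, of the same list, was at 124.5 and 142.0 CPM in Scr and 92.7 and 99.5 CPM in miR-27a KO. Its log2 fold change of -0.49 (SE 0.1, adjusted p 0.0353 in edgeR's test) did not reach 1.5-fold. Of the 12 genes, 8 had a higher fitted value in miR-27a KO and 4 a lower one, against 50.9% and 49.1% of all genes. *SPINT1*, a protease inhibitor of epithelia, was at 65.8 and 61.7 CPM in Scr, 145.0 and 143.9 CPM in miR-27a KO, and 24.0 and 7.41 CPM in miR-23a KO. Other genes of the list had other orders: *RAB25* was at 13.54 and 12.09 CPM in Scr and lower in both KO groups, at 0.545 and 0.1202 CPM in miR-27a KO and 1.834 and 0.9328 CPM in miR-23a KO. *SPINT2*, at 12.1 and 9.402 CPM in Scr, was lowest in miR-27a KO (2.301 and 2.825 CPM) and highest in miR-23a KO (19.33 and 12.4 CPM). Among 5 tested epithelial repressors and mesenchymal genes 2 fell in miR-27a KO, *SNAI1* by 2.08 on the log2 scale (SE 0.35) and N-cadherin (*CDH2*) by 1.58 (SE 0.26). *CDH2* was at 14.2 and 10.1 CPM in Scr, 4.18 and 4.03 CPM in miR-27a KO, and 25.06 and 89.99 CPM in miR-23a KO. *KRT17*, the 1 of 4 other keratins tested that was called, rose from 0.205 and 0.269 CPM in Scr to 2.725 and 2.825 CPM.

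Markers of other cell types were examined beside these results. The bile duct list, whose 8 genes include *KRT7* and *KRT19*, summed to 923.8 and 644.9 CPM in Scr, 485.0 and 798.8 CPM in miR-23a KO, and 1844 and 1870 CPM in miR-27a KO. The sum was highest in miR-27a KO mainly through its most abundant gene *SPP1*, at 465.2 and 184.9 CPM in Scr and 1266 and 1289 CPM in miR-27a KO. Others of the list were lower there, *KRT19* at 173.5 and 170.5 CPM against 203.4 and 216.9 CPM in Scr, and *KRT7* at 0.0606 and 0.0601 CPM against 0.2735 and 0.403 CPM. No gene of the list was at 0 in all libraries, and its part in the results was not tested. The hepatocyte list summed to 29430 and 36920 CPM in Scr, 31700 and 33420 CPM in miR-23a KO, and 25750 and 25650 CPM in miR-27a KO. Its genes moved apart in miR-27a KO, *ALB* from 10250 and 15020 CPM in Scr to 2087 and 2147 CPM, *AFP* from 2547 and 3891 to 184.4 and 191.4 CPM, and *TF* from 3263 and 2253 to 6545 and 6736 CPM. The other lists were small or rested on 1 gene: gut epithelium between 310.1 and 463.5 CPM with *VIL1* most abundant, stratified epithelium and hair between 3.95 and 6.11 CPM with *KRT10*, and endothelium between 4.202 and 7.243 CPM with *PECAM1*. In the gut list *CDX2* was lower in miR-27a KO, at 0.1817 and 0.3607 CPM against 5.334 and 5.306 CPM in Scr. The fibroblast and stellate cell list rested on *PDGFRB*, which was lower in miR-27a KO too, at 5.631 and 5.11 CPM against 17.1 and 29.08 CPM in Scr and 29.95 and 19.97 CPM in miR-23a KO.

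**Figure D4:**
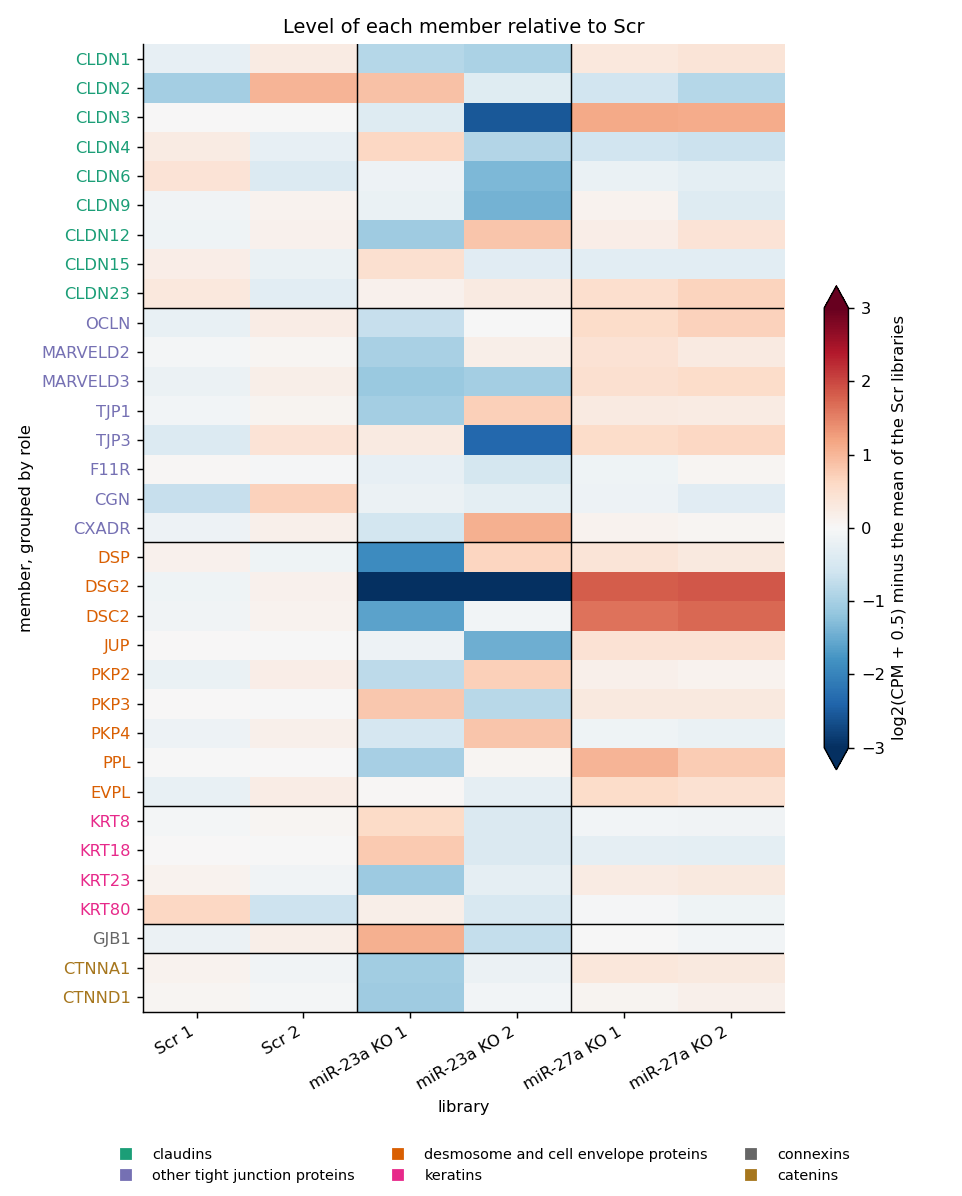
Colour gives log2(CPM + 0.5) of each tested member in each library minus the mean of the Scr libraries, from blue (lower) to red (higher), with colours clipped at the ends of the scale. *DSG2* is the darkest blue in both miR-23a KO libraries and, with *DSC2*, the darkest red in both miR-27a KO libraries, and many members take opposite colours in the miR-23a KO libraries.

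The comparison of miR-23a KO with Scr asked which members differ in cells edited in miR-23a. *DSG2* was the member that stood out, with 9 and 29 counts in miR-23a KO against 262 and 319 in Scr. No member was called in either direction, and of all 13786 genes tested 0.0% were called higher and 0.0% lower. The fitted log2 fold change of *DSG2* was -4.03 (SE 0.70) with an unadjusted p of 0.000398 and an adjusted p of 0.367 in edgeR's test, both libraries lying below both of Scr. It was the 1 member below an unadjusted p of 0.05 on the lower side, where 1.55% of all genes were, and 0 members were so on the higher side, against 0.856%. DESeq2 called 1 member lower, *DSG2* (adjusted p 1.62e-06), beside 0.428% of all genes, as did edgeR with the replicate block (adjusted p 8.46e-06), beside 0.45%. No member was called by limma, and over 9 alternatives the adjusted p of *DSG2* lay between 1.62e-06 and 0.62.

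Members with no overlap lay below Scr in miR-23a KO. Both miR-23a KO libraries were below both of Scr for 10 of 33 members and above them for 0, against 13.7% and 9.91% of all genes. The 10 were *CLDN1*, *CLDN3*, *CLDN9*, *MARVELD3*, *F11R*, *DSG2*, *JUP*, *KRT23*, *CTNNA1* and *CTNND1*, from 5 of the 6 roles. Apart from *DSG2* their log2 fold changes lay between -1.21 and -0.35. Fitted values were lower for 20 members and higher for 13, against 37.0% and 63.0% of all genes, and the median log2 fold change was -0.26, against 0.16 for all genes tested. By role the median was 0.04 for claudins, -0.33 for other tight junction genes, -0.11 for desmosome and cell envelope genes, -0.05 for keratins and -0.47 for the catenins, and *GJB1*, the 1 connexin tested, had 0.43.

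The other members named by rule had values of both signs. *CLDN3* had a log2 fold change of -1.21 (SE 0.84), *DSC2* of -0.63 (SE 0.71), *CTNNA1* of -0.50 (SE 0.50), *F11R* of -0.35 (SE 0.42) and *PPL* of -0.34 (SE 0.60). *DSP*, at 105.0 and 618.0 CPM in miR-23a KO, had -0.05 (SE 0.76), and its libraries lay below and above the Scr pair. *KRT8* was at 4832 and 2384 CPM and *GJB1* at 374.4 and 109.3 CPM, again on either side of Scr, with log2 fold changes of 0.17 (SE 0.56) and 0.43 (SE 0.59). *CLDN4* had 0.04 (SE 0.55). Each of these values was smaller than 2 times its standard error. When miR-23a KO replicate 1 was left out, *CLDN3* had -3.04, *DSC2* -0.09 and *CTNNA1* -0.18, and when replicate 2 was, they had -0.43, -1.79 and -1.08.

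The disagreement within miR-23a KO was ordered along transcript length and GC content. Across 30 members, the log2 ratio of replicate 2 to replicate 1 had a Spearman rho of 0.71 with transcript length and -0.78 with GC content, and across all 12188 genes with both values 0.48 and -0.69. Genes are not independent replicates, and these correlations describe the pair of libraries. Of the 26 members over 1.5-fold apart, 13 were higher in replicate 1, among them *CLDN3*, *TJP3*, *GJB1* and *PKP3*, and 13 in replicate 2, among them *DSP*, *CLDN12*, *TJP1* and *DSC2*. In miR-27a KO the rho with length was 0.05 and with GC content -0.38 across 31 members, and in Scr 0.16 and -0.23 across 32. Across all genes the rho with GC content was -0.10 in miR-27a KO and -0.48 in Scr, and with length -0.01 and 0.20, so the Scr pair had an order by GC content as well. Leaving out miR-23a KO replicate 1 gave 1 member called higher and 4 lower against Scr, beside 2.34% and 1.78% of all genes, and leaving out replicate 2 gave 3 higher and 8 lower, beside 12.0% and 6.6%. *DSG2* was called lower both times.

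**Figure D5:**
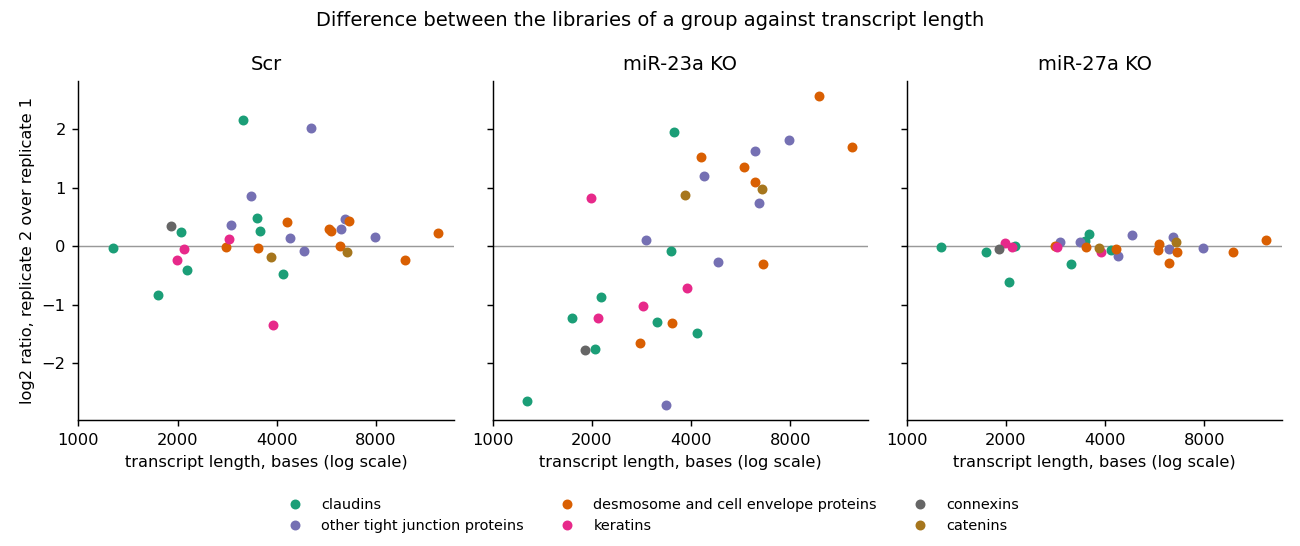
Log2 ratio of replicate 2 to replicate 1 for each member against transcript length on a log axis, in a panel for each group and coloured by role. In miR-23a KO short transcripts lie below 0 and long ones above it for most members (rho 0.71), while in miR-27a KO the points lie near 0.

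The comparison of the KO groups with each other tests their difference directly and uses no Scr library. *DSG2* was again the widest difference, from 0.688 and 1.59 CPM in miR-23a KO to 70.2 and 72.3 CPM in miR-27a KO. Its log2 fold change of miR-23a KO over miR-27a KO was -5.95 (SE 0.56), with an adjusted p of 0.0933 in edgeR's test. No member was called in edgeR fitted to these 4 libraries without a block or correction, and of all 13841 genes tested 0.0% were called higher and 0.0% lower. At an unadjusted p under 0.05, 6 members were lower in miR-23a KO (*CLDN1*, *CLDN3*, *MARVELD3*, *DSG2*, *DSC2* and *PPL*) and 0 higher, against 4.06% and 4.66% of all genes. DESeq2 called 3 lower (*DSC2*, *DSG2* and *MARVELD3*), beside 1.58% of all genes, limma with a pseudocount of 0.1 called 1, *DSG2*, beside 0.337%, and limma with a pseudocount of 1 called 0. In edgeR, a fit of all 6 libraries called 1 lower, *DSG2*, beside 0.77% of all genes, the replicate block 3 (*CLDN3*, *DSC2* and *DSG2*), beside 1.37%, correction for GC content and length 3 (*DSC2*, *DSG2* and *MARVELD3*), beside 0.91%, and both together 8, beside 3.53%. None of these called a member higher. Over 9 alternatives the adjusted p of *DSG2* lay between 1.4e-20 and 0.0868, under 0.05 in 6.

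Both miR-23a KO libraries lay below both miR-27a KO libraries for 16 of 33 members, against 19.9% of all genes, and above them for 1, *CLDN2*, against 19.7%. Of the 16, 5 were desmosome or cell envelope genes, 5 other tight junction genes, 3 claudins, 2 catenins and 1 a keratin. Fitted values were lower for 25 members and higher for 8, against 42.4% and 57.6%. The member median of the log2 fold change was -0.47 and that of all genes 0.11. *DSC2* had -2.43 (SE 0.63, adjusted p 0.318), *CLDN3* -2.39 (SE 0.89, adjusted p 0.552) and *PPL* -1.32 (SE 0.48, adjusted p 0.54) in edgeR's test. When miR-23a KO replicate 1 was left out, these 3 had -1.85, -4.25 and -0.90, and when replicate 2 was, -3.50, -1.58 and -1.96. *CTNNA1* had -0.88 (SE 0.43), *DSP* -0.47 (SE 0.84) and *F11R* -0.37 (SE 0.33), and *CLDN4*, *GJB1* and *KRT8* had 0.65 (SE 0.57), 0.47 (SE 0.65) and 0.24 (SE 0.50). Without miR-23a KO replicate 1, 14 members were called lower and 2 higher, beside 14.9% and 19.3% of all genes. Without replicate 2 it was 16 lower and 6 higher, beside 26.2% and 25.2%. Leaving out either miR-27a KO library gave 1 lower, *DSG2*, and 0 higher, beside at most 0.339% and 0.187%.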

How the data were processed

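The values that the authors deposited, 1 per gene and library, were taken to be expected counts that had not been scaled, although the columns are named FPKM. This reading is uncertain and rests on totals that differ between libraries and on 34.5% to 40.8% of values above 0 having no decimals (42.6% to 51% with zeros). Values were rounded, and 0 value columns were left out. The submitters' processing notes name HISAT, StringTie, Cufflinks and GATK; genome build and counting tool are not given in the sources used here. The labels and the study's methods name different library kits, so strand use is not known.

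Each pair of groups was fitted with edgeR 4.0.16 (R 4.3.3; filterByExpr, TMM, glmQLFit, glmQLFTest), with Benjamini-Hochberg adjustment over all genes tested; limma 3.58.1 and DESeq2 1.42.0 were alternatives. The standard error is the log2 fold change over the square root of F. CPM used TMM factors over all 6 libraries, and FPKM the longest GENCODE 29 transcript. Ratios within pairs used genes with at least 40 counts in the pair. Seed matches were counted in 3'-UTRs of GENCODE 29. Python 3.11.15 with pandas 2.3.3, scipy 1.17.1 and matplotlib 3.10.9 made the tables and figures. The workflow was tested on simulated data.

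Named members are those called in at least 1 comparison and the one with the highest mean CPM in Scr in each role; others named were chosen after their values were seen. Members and lists were chosen with earlier results of these data known.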

Additional observations from a re-analysis of the deposited data

Results flagged for a closer look

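For 8 of 33 members both miR-23a KO libraries lay below both Scr libraries and both miR-27a KO libraries above them, as for 4.1% of all genes. The KO groups share the Scr libraries, so the sides are not independent, and the difference between the KO groups was tested directly, with none of the 8 called by edgeR's quasi-likelihood test on those 4 libraries without a block or correction. The log2 fold change of miR-23a KO over miR-27a KO was -5.95 for *DSG2*, -2.39 for *CLDN3*, -1.64 for *MARVELD3* and -1.29 for *CLDN1*. It was -1.10 for *JUP*, -0.92 for *KRT23*, -0.88 for *CTNNA1* and -0.62 for *CTNND1*. The members come from claudins, other tight junction genes, desmosome genes, keratins and catenins. Their adjusted p-values in edgeR's test ran from 0.0933 for *DSG2* to 0.80 for *CTNND1*. Why the KO groups lie on opposite sides of Scr was not tested.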

How the results depend on the processing

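Counts of members called kept within 1.5 times of those reported under median-ratio scaling, no filter on low counts, limma with a pseudocount of 1 and a fold change over 2. In miR-27a KO against Scr, 0 were higher in a fit of all 6 libraries, whose shared spread takes in miR-23a KO, and 0 at an adjusted p under 0.001. DESeq2 called 1 lower there (7.66% of all genes), 1 lower in miR-23a KO against Scr (0.428%) and 3 lower between the KO groups (1.58%). Between the KO groups a fit of all 6 libraries called 1 lower, limma with a pseudocount of 0.1 called 1, and GC content and length correction called 3. For differences with no construction named, the cause was not tested.

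With the replicate block, 1 member was lower in miR-23a KO against Scr (0.45% of all genes) and 1 in miR-27a KO against Scr (7.74%). Between the KO groups 3 were lower (1.37%). With GC content and length corrected as well, 0 were lower in miR-23a KO against Scr (0.0145%). In that setting 9 were higher in miR-27a KO against Scr (6.29%) and 8 lower between the KO groups (3.53%). Deviations of same-numbered libraries correlated at 0.23 (Scr and miR-23a KO), -0.01 (Scr and miR-27a KO) and 0.02 (the KO groups). In Scr and in miR-23a KO the ratio of replicate 2 to replicate 1 fell with GC content across all genes (rho -0.48 and -0.69). Whether the replicate number is a pairing was not tested.

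Of the 90 fitted values of the named members in each comparison with all libraries kept, few changed sign. It was 4 in miR-23a KO against Scr, 4 in miR-27a KO against Scr and 0 between the KO groups. With a library left out it was 7, 3 and 4 of 40. In miR-23a KO against Scr, *CLDN4* went to -0.10 with the replicate block, -0.03 with GC content and length corrected as well, and -0.10 and -0.09 in limma at pseudocounts of 0.1 and 1. In miR-27a KO against Scr, *KRT8* went to 0.11 and *GJB1* to 0.17 with GC content and length corrected, and to 0.12 and 0.19 with the replicate block added.

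Leaving out each library in turn, which leaves 1 library assumed to vary like the other group, gave 0 to 3 members higher and 0 to 8 lower in miR-23a KO against Scr, 2 to 8 and 0 to 3 in miR-27a KO against Scr, and 0 to 6 and 1 to 16 between the KO groups. In miR-23a KO against Scr the fitted values ran from -0.90 to 0.57 for *CLDN4*, -1.93 to 0.65 for *DSP*, -0.45 to 0.55 for *KRT8*, -0.72 to 1.03 for *GJB1* and -1.06 to 0.05 for *PPL*. In miR-27a KO against Scr they ran from -0.13 to 0.05 for *F11R* and -0.22 to 0.10 for *GJB1*. Between the KO groups they ran from -0.30 to 1.22 for *CLDN4*, -2.24 to 0.29 for *DSP*, -0.38 to 0.67 for *KRT8* and -0.70 to 1.11 for *GJB1*. The squared deviation within a pair, over that of sampling alone, was 123 at the median gene of miR-23a KO, 12.1 for Scr and 1.81 for miR-27a KO. With 2 libraries a group this spread is itself poorly known, and it limits both comparisons that hold miR-23a KO.

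Of all genes in miR-27a KO against Scr, 487 were higher and 931 lower, 304 and 588 without the filter, 3 and 61 in the fit of all 6 libraries, 667 and 788 after correction for GC content and length, and 869 and 932 with the replicate block added. Against 0 and 0, DESeq2 gave 4 and 59 in miR-23a KO against Scr and 259 and 218 between the KO groups.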
